A study of Mus musculus with 96 samples.

Results

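Igf1r, Igf2r and Insr, the genes of the insulin and insulin-like growth factor (IGF) receptors, are 3 of 96 genes assayed in single epithelial cells of the mouse uterus. They were taken by name, and their assays carry the CD names of the proteins (CD221, CD222 and CD220). The study sorted 96 CD326+ cells, 1 to a well, from mouse uterus taken at postnatal day 7 and digested with collagenase. CD326 is EpCAM, an adhesion protein of epithelial cells. Each gene was read by quantitative PCR as a cycle threshold (Ct), the cycle at which product appears, so that a lower Ct means more template. The labels give 1 group with no treatment, genotype, strain or control, and the number of animals is not given in the sources used here. Cells of 1 group are not replicates, so values are described with counting intervals or spreads and without p-values.

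IGF1R and INSR are related receptor tyrosine kinases. They bind IGF1, IGF2 and insulin with different preference, can pair with each other as hybrid receptors, and signal through the PI3 kinase and MAP kinase routes to growth and survival. IGF2R, also called the cation-independent mannose 6-phosphate receptor, has no kinase: it carries lysosomal enzymes and takes IGF2 to the lysosome, and in the mouse its gene is imprinted and expressed mainly from the maternal copy. In the uterus, IGF1 from the stroma is known as a mediator of estrogen-driven growth of the epithelium.

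Detection here means a Ct below 28. By that limit the number of genes per cell ran from 9 to 78, around a median of 54. In 8 cells, called low-Gapdh cells here, the Ct of the reference gene Gapdh was above 18 or missing. One of them, cell 67, had no Ct in any of the first 71 assays of the table, which include Insr (assay 64) but neither Igf1r (assay 76) nor Igf2r (assay 88). Epithelial markers were found in every cell: of 6 (Epcam, Cdh1, Krt8, Krt18, Krt19 and Cd24a) the median cell with all 3 receptors detected 6 (range 3 to 6), and so did the median cell with fewer receptors (range 1 to 6). Epcam, the gene of the sorting antigen, was not detected in 22 cells. Of the endothelial markers, Pecam1 was found in 93 cells, Cd34 in 49 and Eng in 13, and the leukocyte marker Ptprc was found in 57. Of the stromal markers, Nt5e, Mme and sma were found in 83, 73 and 70 cells, but Thy1, Mcam and Vim in 17, 15 and 7. The markers alone thus do not settle the label. Primer sequences were not checked, and the assays are not known to tell apart the splice forms of Insr, or Igf2r from RNA transcribed antisense to it.

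The 3 receptors were detected in widely different shares of cells. Igf1r was found in 94.8% of cells (91 of 96, exact Clopper-Pearson 95% interval 88.3 to 98.3%), Igf2r in 76.0% (73 of 96, interval 66.3 to 84.2%) and Insr in 58.3% (56 of 96, interval 47.8 to 68.3%). The intervals cover counting error only, and those of Igf1r and Igf2r do not meet, whereas those of Igf2r and Insr overlap. All 3 were found in at least 50% of cells, as were 55.2% of the 96 assays, and Igf1r was in at least 90% of cells, as were 10.4% of the assays. In the order of detected cells Igf1r stood at place 6 of 96, level with Krt18 and next to Bmi1, Krt19 and Pecam1 (93 cells each) above and Cd24a, Fzd7 and Krt8 (87 each) below. Igf2r stood at place 29, level with Mme, just below Epcam and Esr1 (74 each) and above Cd200 and sma (70 each). Insr stood at place 46, level with Krt15, between Lgr6, Ptprc and Sall4 (57 each) and Pgr (55).

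**Figure D1:**
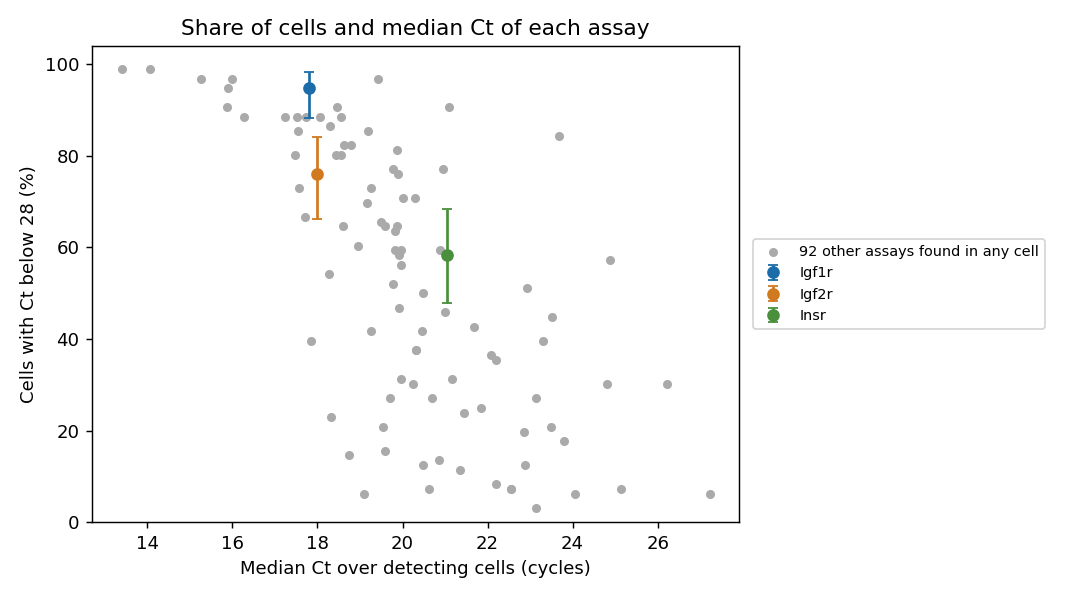
Each point is 1 assay, with its median Ct over the detecting cells on the x axis (cycles) and the percentage of the 96 cells with a Ct below 28 on the y axis; bars on the 3 receptors are exact 95% intervals. Igf1r and Igf2r lie at nearly the same median Ct (17.8 and 18.0) but at 94.8% and 76.0% of cells, while Insr lies at a median Ct of 21.0 and 58.3%.

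Igf1r was found early in nearly every cell. Its Ct was lowest at 14.8, had a median of 17.8 and quartiles of 16.8 and 19.5, and was highest at 23.9, with a mean of 18.2 ± 2.01 (SD, n = 91 cells). No cell had an Igf1r Ct between 24 and the limit of 28, and none had a recorded value at 28 or above. A cell therefore either showed Igf1r at least 4 cycles before the limit or gave no Ct at all, as in the other 5 cells. Of these 5 cells, 4 were low-Gapdh cells that detected 9 to 20 other genes. The fifth, cell 58, is unlike them: it detected 54 genes, Igf2r at a Ct of 18.9 and Insr at 18.6, and had a Gapdh Ct of 12.7. Among the 88 cells outside the low-Gapdh group Igf1r was found in 98.9% (87 cells).

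Igf2r was about as early as Igf1r where it was found, but it was missing from more cells. Its Ct ran from 14.9 to 24.3, with a median of 18.0, quartiles of 16.3 and 19.8 and a mean of 18.2 ± 2.31 (SD, n = 73 cells). A single cell lay between 24 and 28, and 1 more had a recorded Ct of 28.1, just past the limit, which counts as undetected. The remaining 22 cells without Igf2r gave no Ct. Outside the low-Gapdh group Igf2r was found in 81.8% (72 of 88 cells), and in that group only in cell 67, at a Ct of 21.3.

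Insr was found in the fewest cells and at later cycles. Its Ct ran from 15.9 to 26.7, with a median of 21.0, quartiles of 19.1 and 22.4 and a mean of 21.1 ± 2.59 (SD, n = 56 cells). In 9 of the 56 cells the Ct was 24 or later, which is 16.1% of its detections, against 1.37% for Igf2r, 0% for Igf1r and a median of 1.27% over the 53 assays that reached 50% of cells. Part of its share thus lay near the limit: with a Ct limit of 24 it was 49.0%, while those of Igf1r and Igf2r were 94.8% and 75.0%. The other 40 cells gave no Ct for Insr, cell 67 among them. Outside the low-Gapdh group Insr was found in 61.4% (54 of 88 cells).

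**Figure D2:**
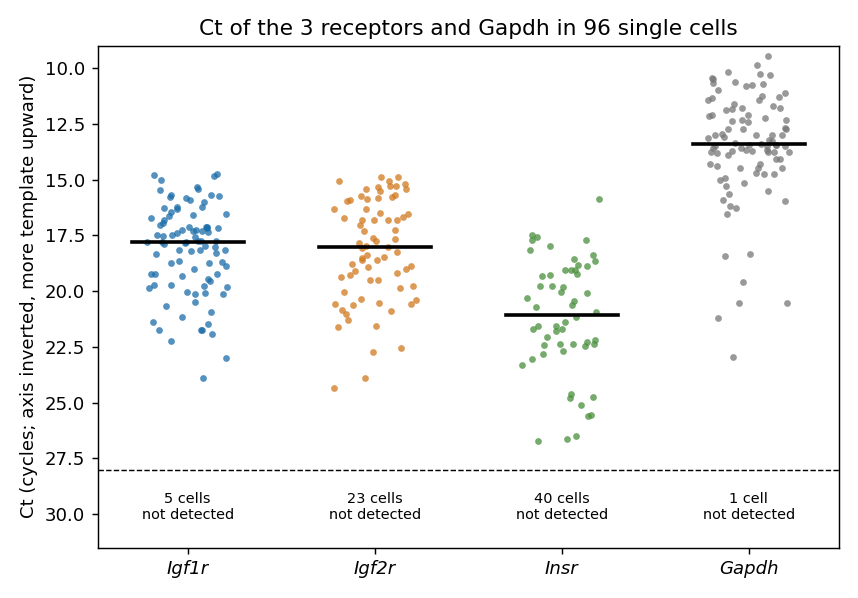
Each point is the Ct of 1 gene in 1 of the 96 cells (y axis, cycles, inverted so that more template is higher), for Igf1r, Igf2r, Insr and Gapdh on the x axis; black lines are medians of the detecting cells and the dashed line is the limit of 28. Igf1r and Igf2r end at Ct 23.9 and 24.3, well above the dashed line, while Insr reaches 26.7; 5, 23 and 40 cells had no detection.

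Within single cells, Insr came later than either IGF receptor, and the IGF receptors had no fixed order. In the 55 cells that detected both, Insr had a mean Ct of 21.2 ± 2.59 and Igf1r of 17.5 ± 1.70 (SD), and the median difference (Insr minus Igf1r) was 3.81 cycles, with quartiles of 1.87 and 5.07. Insr was the later of the pair in 53 of these 55 cells. In the 50 cells with both Insr and Igf2r the median difference (Insr minus Igf2r) was 2.72 cycles, and Insr was later in 45. Between Igf2r and Igf1r, in 72 cells, the median difference (Igf2r minus Igf1r) was 0.55 cycles with quartiles of -1.54 and 2.38, less than its SD of 2.60. Igf2r was the later in 41 of the 72 cells and the earlier in 31. In the 49 cells with all 3 receptors the lowest Ct belonged to Igf1r in 28 and to Igf2r in 21, never to Insr, and the highest belonged to Insr in 44. Cells without Insr have no place in its differences, and primer efficiencies are not known, so a difference in Ct between genes is a rough order and not a ratio of transcripts.

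**Figure D3:**
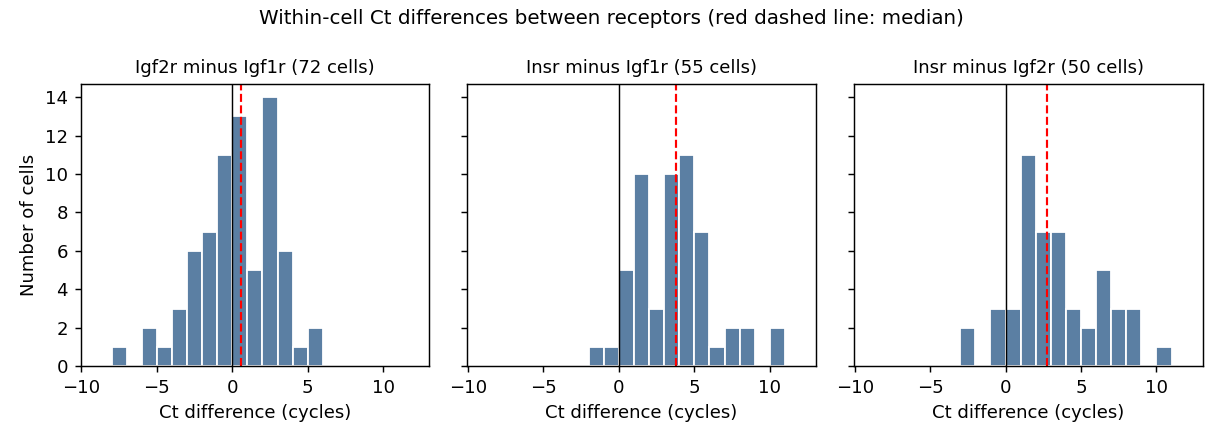
Number of cells (y axis) by the within-cell difference in Ct (x axis, cycles, bins of 1 cycle) for Igf2r minus Igf1r, Insr minus Igf1r and Insr minus Igf2r, in the cells that detected both genes; the black line is 0 and the red dashed line the median. Igf2r minus Igf1r lies on both sides of 0 (median 0.55), while Insr lies mostly to the right (medians 3.81 and 2.72).

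Ranked by Ct among all genes detected in the same cell, the order was the same. Igf1r stood at a median place of 14 (range 4 to 49, 91 cells), Igf2r at 21 (range 1 to 52, 73 cells) and Insr at 41 (range 10 to 65, 56 cells). A place depends on how many genes the cell detected. As a percentage of the genes detected in the cell, the median places were 29.8, 41.2 and 77.8. Igf2r was thus the earliest assay of all in at least 1 cell and among the latest in others.

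All 3 receptors were detected together in 51.0% of cells (49 of 96, interval 40.6 to 61.4%). Another 30 cells had 2 of the receptors: Igf1r with Igf2r in 23, Igf1r with Insr in 6, and Igf2r with Insr in 1, which is cell 58. Igf1r alone was found in 13 cells, whereas Igf2r alone or Insr alone was found in 0 of 96 cells, so that their shares are at most 3.77% by the exact interval. The 4 cells with no receptor were all low-Gapdh cells. So apart from cell 58, each cell with Igf2r or Insr also had Igf1r. As Igf1r was in 94.8% of all cells and missing from only 5, few cells could have shown Igf2r or Insr without it.

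The number of receptors moved with the number of other genes a cell detected. Cells with all 3 receptors detected a median of 56 other genes (range 19 to 75), cells with 2 a median of 49 (range 11 to 63), cells with 1 a median of 39 (range 15 to 57) and cells with none a median of 15.5 (range 9 to 20). These ranges overlap. The part of template amount or PCR success in the receptor counts was not tested.

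**Figure D4:**
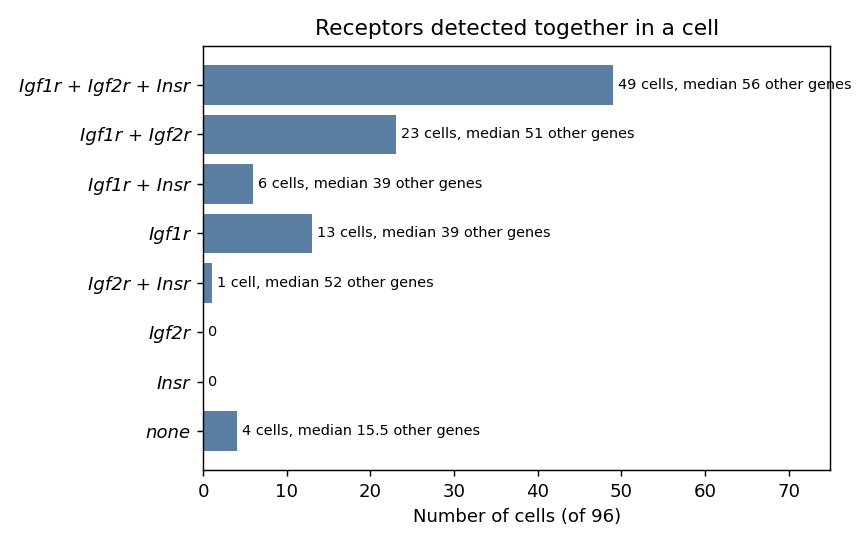
Number of cells (x axis, of 96) with each combination of detected receptors (y axis), with the median number of other genes detected written beside each bar. All 3 receptors were found in 49 cells, and no cell had Igf2r alone or Insr alone.

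Insr was found more often in the cells that had Igf2r. It was detected in 68.5% of the cells with Igf2r (50 of 73, interval 56.6 to 78.9%) and in 26.1% of those without (6 of 23, interval 10.2 to 48.4%), and these cells detected a median of 54 and 37 other genes. Within the 48 cells with a Gapdh Ct at or under the median, Insr was in 33 of 45 cells with Igf2r and in 1 of 3 without. Within the other 48 cells, Insr was in 17 of 28 cells with Igf2r (60.7%) and in 5 of 20 without (25.0%). Without the low-Gapdh cells the shares were 69.4% (50 of 72) and 25.0% (4 of 16), so the gap was as wide there.

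Levels were compared between the receptors after a fit on the number of genes detected, which the shares above did not have. The level was 28 minus Ct, on a log2 scale that takes each cycle as a doubling, and 0 where undetected; a linear fit on the number of other genes detected was subtracted. The assays of a cell share its template, and the cells share a chip. Over the 96 cells, Spearman's rho was 0.32 between Insr and Igf1r (Pearson r = 0.21). It was 0.23 between Insr and Igf2r (r = 0.25) and 0.08 between Igf2r and Igf1r (r = 0.07). Of all 3655 pairs among the 86 assays that reached 10% of cells, 2.19% had a rho of at least 0.5, and none of the receptor pairs did. The value for Insr with Igf1r was 0.03 in the 55 cells with both once their Ct was fitted on Gapdh and actin, and that for Igf2r with Igf1r was -0.13 in the 63 cells that had all of Gapdh, actin and Hprt. Without the fit on genes detected, rho over the 96 cells was higher: 0.51 for Insr with Igf1r, 0.45 for Insr with Igf2r and 0.40 for Igf2r with Igf1r.

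Detection of Igf2r and Insr, more than of Igf1r, differed with the amount of Gapdh. The 96 cells were split at the median Gapdh Ct of 13.4 into 48 cells with more and 48 with less Gapdh, a split by input and not by a group of the study. Igf2r was found in 93.8% of the cells with more Gapdh (45 of 48, interval 82.8 to 98.7%) and in 58.3% of those with less (28 of 48, interval 43.2 to 72.4%), a difference of 35.4 percentage points. Insr was found in 70.8% (34 of 48) and 45.8% (22 of 48), a difference of 25.0 points, with intervals that overlap. Igf1r was found in 97.9% (47 of 48) and 91.7% (44 of 48), 6.25 points apart. A difference in this direction was the rule, held by 91.6% of the 95 assays found in any cell, with a median of 18.8 points. Among the 96 assays the difference of Igf2r ranked 8, that of Insr 23 and that of Igf1r 75. Without the low-Gapdh cells the differences were 22.7 points for Igf2r (place 18), 18.2 for Insr (place 29) and -2.27 for Igf1r, around a median of 11.4 over the assays. Split by the Ct of actin in place of Gapdh, they were 18.8 points for Igf2r (place 32), 45.8 for Insr (place 6) and 10.4 for Igf1r, around a median of 12.5, so the order of Igf2r and Insr turned round.

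Sorted by the number of other genes detected, the 32 cells with the fewest had Igf2r in 40.6% (13 cells) and Insr in 37.5% (12 cells), but Igf1r in 87.5% (28 cells). In the middle 32 cells Igf2r was in 93.8%, Insr in 59.4% and Igf1r in 96.9%. In the 32 cells with the most, Igf2r was again in 93.8%, Insr in 78.1% (interval 60.0 to 90.7%) and Igf1r in 100%. The share of Igf2r was thus the same in the middle and highest sets. That of Insr was higher at each step, with overlapping intervals between neighbours.

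Where it was found, Igf2r came at nearly the same Ct in cells with more and with less Gapdh. Its median was 18.0 in the 45 detecting cells with more Gapdh (quartiles 16.3 and 19.1) and 17.9 in the 28 with less (quartiles 16.2 and 20.1). Igf1r differed, with a median of 17.0 (quartiles 15.8 and 17.8, 47 cells) in cells with more Gapdh and 19.1 (quartiles 17.9 and 20.1, 44 cells) in cells with less. Insr had medians of 19.9 (34 cells) and 21.7 (22 cells). Across the Gapdh split Igf2r thus differed in detection and hardly in Ct, and Igf1r the reverse. Igf1r was in 94.8% of all cells, which left its detection little room to differ. Krt19, Pecam1 and Bmi1, also found in nearly all cells, had the same difference of 6.25 points. Split by actin, Igf2r had median Ct values of 17.7 in the cells with more actin and 18.8 in those with less, and Igf1r of 16.9 and 19.7.

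Over the cells that detected both genes, the Ct of Igf1r followed that of actin closely. Its rho with the actin Ct was 0.80 (Pearson r = 0.75, and 0.74 without the 2 cells farthest from the median, n = 90), place 1 of 65 assays with at least 30 such cells, whose median rho was 0.43. Itga3, Gapdh and Ctnnb1 were almost level, each with a rho of 0.79. By Pearson r these stood above Igf1r, at 0.79, 0.78 and 0.78. With the Gapdh Ct the rho of Igf1r was 0.63 (r = 0.48, and 0.54 without the 2 farthest cells, n = 90), place 26 of 65 and near the median of 0.58. Insr had a rho of 0.46 with Gapdh (r = 0.40, n = 56) and 0.32 with actin (r = 0.35, n = 56). Igf2r had 0.25 with Gapdh (r = 0.27, n = 72, place 60 of 65) and 0.14 with actin (r = 0.19, n = 72, place 61 of 65). These are descriptions over cells that share a chip. Leaving out the low-Gapdh cells gave 0.80, 0.33 and 0.14 with actin for Igf1r, Insr and Igf2r.

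**Figure D5:**
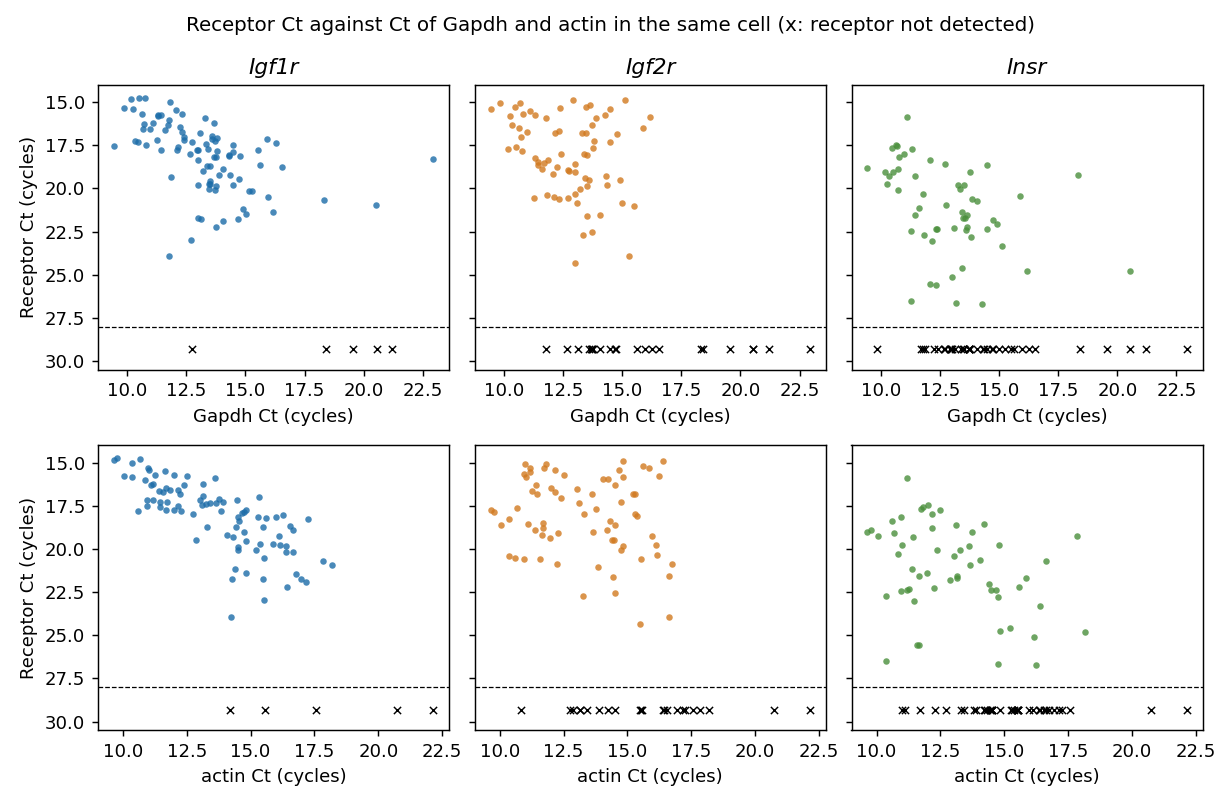
Receptor Ct (y axis, cycles, inverted) against the Ct of Gapdh (upper row, x axis, cycles) and of actin (lower row) in the same cell, for Igf1r, Igf2r and Insr; crosses under the dashed limit of 28 are cells in which the receptor was not detected. Igf1r runs along with actin (rho = 0.80), whereas the detected values of Igf2r spread widely and follow it little (rho = 0.14); in the 7 cells with an actin Ct above 17 Igf2r was not detected.

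Cell-to-cell spread that the reference genes do not account for was larger for Insr and Igf2r than for Igf1r. After a linear fit of each Ct on the mean Ct of Gapdh and actin, the residual SD was 2.40 cycles for Insr (n = 56), 2.24 for Igf2r (n = 72) and 1.52 for Igf1r (n = 90). Ranked from the smallest among 51 assays that reached 50% of cells, these stood at places 48, 46 and 19, around a median of 1.68 cycles. With a Ct limit of 24, which leaves out its 9 late cells, Insr had a residual SD of 1.71 (n = 47) and Igf2r of 2.14 (n = 71), so the order of Insr and Igf2r rests on those cells. The SD of Igf2r was 2.29 cycles before the fit and thus hardly smaller after it.

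The genes whose levels were most like each receptor differed between the 3. By the rho of levels given above, with 85 other assays, those nearest to Igf1r were actin (0.57, r = 0.34), the ecto-nucleotidase gene Nt5e (0.49), Ctnnb1 (beta-catenin, 0.43), the keratin gene Krt18 (0.41) and Hprt, a purine salvage gene (0.40). Its lowest were Krt15 (-0.23) and Cd40 (-0.22). Those nearest to Insr were Prom1 (CD133, a membrane glycoprotein; 0.55, r = 0.55), Hprt (0.48), the ligand gene Wnt7a (0.48), the homeobox gene Emx2 (0.43) and the prion protein gene Prnp (0.42), and its lowest were Sall4 (-0.32) and the WNT receptor gene Fzd4 (-0.31). Of the 38 cells with Prom1, 33 also had Insr, and of the 52 with Wnt7a, 42 did. Without the low-Gapdh cells the rho of Insr was 0.54 with Prom1 and 0.49 with Wnt7a.

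Igf2r had no close partner on the panel. Its highest values were those with Cd200 (0.30), the aminopeptidase gene Anpep (0.26), Insr (0.23), Emx2 (0.22) and the Polycomb gene Bmi1 (0.21), and its lowest those with the tetraspanin gene Cd9 (-0.26) and Cdh1 (E-cadherin, -0.25). A rho of at least 0.5 was reached by 1 of 85 assays for Igf1r, 1 for Insr and 0 for Igf2r. Values of this size in data with many undetected cells set no gene apart.

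Insr was found more often in cells with the transcript of Epcam, the antigen of the sort. It was detected in 66.2% of the cells with Epcam (49 of 74, interval 54.3 to 76.8%) and in 31.8% of those without (7 of 22, interval 13.9 to 54.9%), which detected medians of 53.5 and 46.0 other genes. The gap was seen on both sides of the Gapdh split: 77.5% (31 of 40) and 37.5% (3 of 8) in cells with more Gapdh, 52.9% (18 of 34) and 28.6% (4 of 14) in cells with less. Igf2r was in 81.1% of the cells with Epcam (60 of 74) and in 59.1% of those without (13 of 22), with overlapping intervals. Leaving out the low-Gapdh cells gave 85.7% (60 of 70) and 66.7% (12 of 18) for Igf2r. Igf1r was in 71 of 74 and 20 of 22 cells, and in all 70 cells with Epcam outside the low-Gapdh group. Cdh1, another epithelial marker, did not share the gap of Insr, which was in 58.8% with it (50 of 85) and 54.5% without (6 of 11). Without the low-Gapdh cells Insr was in 49 of 82 cells with Cdh1 and 5 of 6 without. Insr was in 3 of 9 cells without Krt8, 3 of 9 without Cd24a, 1 of 5 without Krt18 and 1 of 3 without Krt19, against 59.1 to 60.9% with each.

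With steroid receptor and growth genes the shares of Insr differed less than with Epcam. Those of Igf2r differed more with Esr1 and Myc than with Epcam over all cells, but less without the low-Gapdh cells. Insr was detected in 60.8% of the cells with Esr1, the estrogen receptor alpha gene (45 of 74), and in 50.0% of those without (11 of 22), and in 60.0% of the cells with Pgr, the progesterone receptor gene (33 of 55), and 56.1% of those without (23 of 41). The assay names read as Esr1 and Pgr, er and pr, each fit more than 1 gene. Igf2r was in 82.4% of the cells with Esr1 (61 of 74) and in 54.5% of those without (12 of 22). Leaving out the low-Gapdh cells gave 83.3% (60 of 72) and 75.0% (12 of 16). Among the cells with more Gapdh, Igf2r was in 40 of 43 cells with Esr1 and in 5 of 5 without. The cells with Esr1 detected a median of 53 other genes and those without 38.5. With Mki67, a gene of cycling cells, Insr was in 72.4% (21 of 29) and without it in 52.2% (35 of 67). Insr also came earlier in the cells with Mki67, at a median Ct of 19.1, than in those without, at 22.0. Those cells detected medians of 57 and 51 other genes and 25 of the 29 with Mki67 were among the 48 with more Gapdh. Among the cells with more Gapdh alone, the median Ct of Insr was 19.2 with Mki67 (20 cells) and 22.3 without (14 cells). With Myc, a growth-promoting transcription factor gene, Insr was in 60.0% (51 of 85) and without it in 45.5% (5 of 11), and Igf2r in 78.8% (67 of 85) and 54.5% (6 of 11). Leaving out the low-Gapdh cells gave 82.7% (67 of 81) and 71.4% (5 of 7) for Igf2r.

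The panel held 2 other receptor tyrosine kinases. Kit, the stem cell factor receptor gene, was found together with Igf1r in 79 cells, with Igf2r in 62 and with Insr in 49. Insr had a median Ct of 21.6 in the 49 cells with both and of 17.7 in the 7 cells with Insr but without Kit. All of these 7 were among the 48 cells with more Gapdh, where the 27 cells with both had a median of 20.3. Mst1r, the macrophage-stimulating protein receptor gene, was found in 26 cells, of which all had Igf1r, 23 had Igf2r and 15 had Insr. The share of Insr was 57.7% with Mst1r and 58.6% without. Of a list of 39 other genes of the insulin and IGF pathway (ligands, binding proteins, IRS adaptors, PI3 kinase, AKT and downstream genes) 0 had an assay in the table, so ligand levels and signalling are not described here.

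Markers of other cell types moved with the receptors in part. Cells with all 3 receptors detected a median of 3 of 6 stromal markers (range 2 to 5) and 2 of 3 endothelial markers (range 1 to 3), and cells with fewer than 3 receptors a median of 2 (range 0 to 5) and 1 (range 0 to 3). They also detected more genes in general, 56 and 45 other genes at the median. The leukocyte marker Ptprc was found in 36 of the 49 cells with all 3 receptors and in 21 of the 47 others. Igf2r was in 91.2% of the cells with Ptprc (52 of 57) and in 53.8% of those without (21 of 39), and in 91.8% of the cells with Cd34 (45 of 49) and 59.6% of those without (28 of 47). Cells with and without Ptprc detected medians of 54 and 43 other genes, and those with and without Cd34 54 and 47. Leaving out the low-Gapdh cells, Igf2r was in 64.5% without Ptprc (20 of 31) and 69.2% without Cd34 (27 of 39), with the shares in cells with each marker unchanged. Its median Ct was alike in cells with Ptprc, at 17.9, and without, at 18.1. Rarer markers were uneven. Of the stromal ones, Insr was in 88.2% of the cells with Thy1 (15 of 17) and 51.9% of those without, in 80.0% with Mcam (12 of 15) and 54.3% without, and in 85.7% with Vim (6 of 7) and 56.2% without. With sma, a commoner stromal marker, Insr was instead the rarer, in 57.1% (40 of 70) and 61.5% without. The remaining stromal markers gave 62.7% with Nt5e (52 of 83) and 30.8% without, and 63.0% with Mme (46 of 73) and 43.5% without. Cells with and without Nt5e detected medians of 53 and 20 other genes, and those with and without Mme 54 and 43. Leaving out the low-Gapdh cells, Insr was in 52 of 83 cells with Nt5e and 2 of 5 without, and in 45 of 72 with Mme and 9 of 16 without. Igf2r was in 94.1% with Thy1 and 72.2% without, but in 73.3% with Mcam and 76.5% without. With Eng, on the endothelial list, Igf2r was in 76.9% (10 of 13) and without it in 75.9%, and Insr in 46.2% and 60.2%. The part of other cell types in the receptor values was not tested.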

How the data were processed

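The members, the gene lists and the tests were chosen with earlier results of these data known. Per the labels' protocols, single CD326+ cells were lysed, reverse transcribed and preamplified in 1 reaction and run with EvaGreen on a Fluidigm Biomark chip. The table deposited by the authors holds raw Ct per the file headers, with 40 for no Ct; the sources used here give no threshold or quality settings. The authors' fold-change table was not used. CD names were matched to genes through the synonyms of a RefSeq table (GRCm38.p6), used for names only.

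All 96 cells and 96 assays were kept. Detection was Ct below 28. Intervals are exact (Clopper-Pearson, 95%). The Spearman correlation of levels was computed over all assays in at least 10% of cells on residuals from a straight line through the number of other genes detected (excluding the pair), and tested on simulated data with linked genes. Named genes were the receptors, reference genes, Epcam, the 5 nearest and 2 farthest assays per receptor, neighbours in the detection order, and listed receptor, hormone and cell type genes. Python 3.11.15, numpy 2.4.6, pandas 2.3.3, scipy 1.17.1 and matplotlib 3.10.9 were used.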

Additional observations from a re-analysis of the deposited data

How the results depend on the processing

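Of 200 values recomputed under the alternatives (Ct limits of 24, 26 or none, subsets of cells, other fits), 185 stayed within the counting interval, 1 SD, 0.15 of rho or 1.5 times the residual SD of the main value, 14 moved and 1 was counted as reversed. The reversed value was the Gapdh-split difference of Igf1r without low-Gapdh cells. The SD here is the spread among cells, so means and medians over mostly the same cells had wide room to stay within it. The count of 185 is therefore a weak check. Changes of sign in values near 0, or in levels minus Gapdh, were counted as moved. The order Igf1r, Igf2r, Insr in share of cells held in each alternative. In the 63 cells that had all of Gapdh, actin and Hprt, Insr was in 76.2%, all 3 receptors in 68.3%, and the rho of Igf2r with Igf1r was -0.13; Hprt is itself among the genes nearest to Insr. Without low-Gapdh cells Igf1r was in 98.9%, and its difference across the Gapdh split was -2.27 points in place of 6.25, with 22.7 for Igf2r in place of 35.4. Without cell 67 Insr was in 58.9%. With actin in place of Gapdh the rho of Igf1r was 0.80, and the difference in detection was 18.8 points for Igf2r and 45.8 for Insr, so their order turned round; the cause was not tested. Minus the Gapdh level of the same cell the mean levels were -4.90 for Igf1r, -5.42 for Igf2r and -8.36 for Insr, which follows from the scale. Without the fit on genes detected the pair values were 0.40 for Igf2r with Igf1r, 0.51 for Insr with Igf1r and 0.45 for Insr with Igf2r. In cells with both genes, on Ct fitted to Gapdh and actin, that of Insr with Igf1r was 0.034. No paired analysis was possible because all cells belong to 1 group, and the within-cell differences set genes, not groups, side by side.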

Other observations

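A few cells held the receptors at levels far from the usual order. Cell 43 detected Igf2r at a Ct of 15.9 but Igf1r only at 23.9, its latest of all cells, with a Gapdh Ct of 11.8 and 50 genes detected. Cell 61 was at the other end, with Igf2r at 20.4 and Igf1r at 15.0, a Gapdh Ct of 11.8 and 65 genes detected. Insr came at 26.5 in cell 7, where Igf1r came at 15.8, and at 26.7 in cell 41, where Igf2r came at 15.8. In cell 31 Insr, at 20.0, came before Igf2r, at 22.7. These cells were chosen after their values were seen, as the ends of each range of within-cell differences.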
